A study of Homo sapiens with 9 samples.

Results

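The genes described here rose during culture of MP41 cells that received the control mimic and stood close to their starting level when the cells received miR-16. MP41 is an established uveal melanoma cell line with a GNA11 mutation, so it models 1 tumor and 1 driver. The cells were transfected at 66 nM with a synthetic miR-16 or with miR-CTR, a control mimic, and polyA RNA was sequenced at 6, 12, 24 and 48 h with each mimic. A 0 h library, carrying the control label, is the common starting point. Whether its cells had been transfected is not given in the labels. Each of the 9 conditions was 1 library, so no value below has a replicate, no p-value was computed, and every library-to-library difference includes culture and handling variation that cannot be told apart from the mimic. Values are log2(normalized count + 1), and the miR-16 minus miR-CTR difference at 1 time is written as logFC.

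A gene was chosen when its 0 h level was at least 7, when the mean of its 24 and 48 h levels with miR-CTR exceeded 0 h by at least 0.5, and when the same mean with miR-16 lay within 0.25 of 0 h. These 3 conditions held for 102 of 14839 genes, which is 0.687% of the table. The choice used the 0, 24 and 48 h libraries, so the late values are a description of how the genes were picked. The 6 and 12 h libraries took no part in it, nor did the sequences of the transcripts. Of all genes, 844 (5.69%) met the first 2 conditions with miR-CTR. Among these 844, 538 also stood at least 0.5 above 0 h with miR-16 and are called kept. Another 194 stood between 0.25 and 0.5 above and are called partly kept, 102 are the blocked genes, and 10 fell below 0 h by more than 0.25.

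A microRNA is loaded into an Argonaute protein and pairs with messenger RNAs, mostly in the 3′UTR, through its seed, which is positions 2 to 8 from its 5′ end. Pairing lowers the stability and the translation of the message. miR-16 belongs to a family that shares 1 seed and is known as a tumor suppressor that restrains the G1 cyclins and their kinases. Such a pairing site is called a microRNA response element or MRE-16. On a transcript that climbs during culture and carries one, production and repression may act together. Neither was measured here.

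The mature miR-16 sequence from RefSeq is the same from MIR16-1 on chromosome 13 and MIR16-2 on chromosome 3, and 7 mature human miRNAs in that table share its seed, among them miR-15a, miR-15b, miR-195, miR-424 and miR-497. In the sequence of miR-16, the capitals mark the seed. In the sites under it, read 5′ to 3′ from GENCODE version 29 transcripts, the capitals mark the letters that match the seed. In an 8mer they also take in the A opposite position 1. Each site is shown with 12 bases before and 2 after. These sites are examples, with 1 site per gene. They are 8mer matches of some of the 11 genes with an 8mer, together with 7mer matches in 4 genes with large differences at 6 or 12 h. Other genes with an 8mer or with differences as large are not shown.
miR-16: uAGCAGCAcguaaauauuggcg
CCND1: tttcacattgttTGCTGCTAtt
PGM2L1: tgttctatgagcTGCTGCTAtc
GAREM: tttatctgtaacTGCTGCTAat
VCL: agaagtgagcttTGCTGCTAca
CLCN5: cttttgaagctaTGCTGCTAac
ATP7A: agattgctgaacTGCTGCTAaa
SESN3: cagtgctcacagTGCTGCTta
IGF2R: cgaagaaaccctTGCTGCTtt
JARID2: aacatttataagTGCTGCTta
FASN: aatgattcaaatTGCTGCTtg

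On GRCh38 the CCND1 site lay at chr11:69653315-69653322 on the plus strand, at bases 2033 to 2040 of a 3192-base 3′UTR. The PGM2L1 site lay at chr11:74332670-74332677 on the minus strand and the GAREM site at chr18:32267228-32267235 on the minus strand. The VCL site lay at chr10:74118708-74118715, the CLCN5 site at chrX:50098249-50098256 and the ATP7A site at chrX:78046857-78046864, all on the plus strand. The 7mer of SESN3 lay at chr11:95172419-95172425 on the minus strand and that of IGF2R at chr6:160105402-160105408 on the plus strand. The 7mer of JARID2 lay at chr6:15521524-15521530 on the plus strand and that of FASN at chr17:82078457-82078463 on the minus strand. All 10 are exonic and in the annotated 3′UTR. CCND1 had a second match, a 7mer with an A opposite position 1, at chr11:69653243-69653249.

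The libraries held 20270000 to 27370000 recovered reads, with miR-16 6 h the shallowest and miR-CTR 48 h the deepest. The median of the 102 genes had 695.5 to 1545 reads in a library, and the lowest count of any of them was 99. The error given with a value is the counting standard error from these reads and covers counting only. The melanocyte markers MITF, SOX10, PMEL, MLANA, TYR, TYRP1 and DCT were all measured, at 12.29 or higher in every library. Of 17 markers of blood, endothelial, fibroblast, epithelial and retinal pigment cells, 4 were in the table (COL1A1, PDGFRA, BEST1 and RLBP1). Their summed level was 9.48 at 0 h and 10.28 with miR-CTR and 10.08 with miR-16 at 48 h on the log2 scale, against 18.59 to 18.94 for the melanocyte markers, and its part in the results was not tested. In such bulk samples, fewer cells of a type and less RNA per cell cannot be told apart.

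With miR-CTR the median of the 102 genes stood above its 0 h value by 0.18, 0.29, 0.495 and 0.665 in the order of the 4 later hours. With miR-16 the medians were 0.05, 0.02, 0.10 and 0.12. The miR-CTR line climbed at each later time, whereas the miR-16 line stayed near its start. The choice of genes fixed the late part of both lines. The earlier changes subtract the same single 0 h library that the choice used, so a low 0 h reading would lift them as well. Nothing is therefore read from the climb itself. The logFC of a gene at an early hour does not contain the 0 h level. The late mean rise with miR-CTR had a median of 0.57, or 1.48-fold, and ran from 0.50 for MMAA to 1.165 for TPCN2. The late mean change with miR-16 ran from -0.245 for MICA to 0.25 for CHD2, the width of the band that chose the genes.

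**Figure D1:**
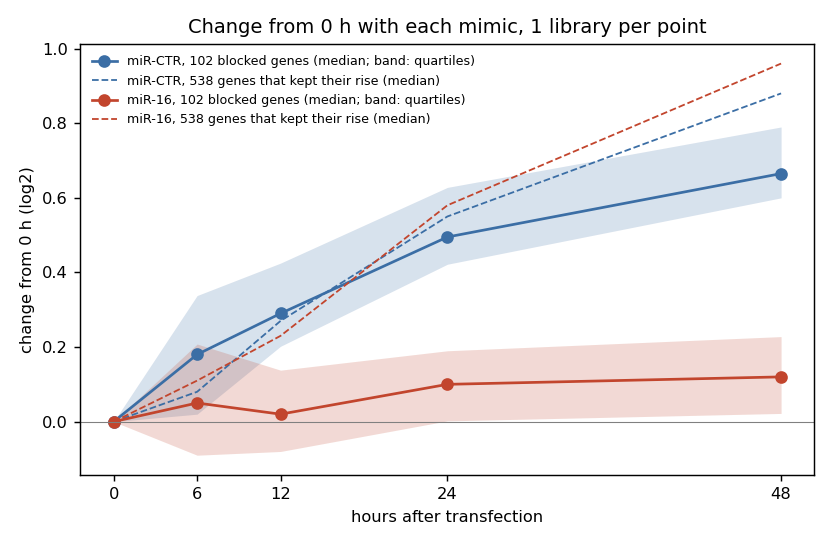
Median change from 0 h (log2, vertical axis) by hours after transfection for the 102 genes with miR-CTR (blue) and miR-16 (red), with bands between the quartiles, and dashed medians of the 538 genes that kept their rise. The blue and red medians are 0.18 and 0.05 at 6 h and 0.29 and 0.02 at 12 h, while the dashed medians stay together and reach 0.88 and 0.96 at 48 h.

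The 12 h libraries gave a difference that the choice had not fixed. At 12 h all 102 genes were lower with miR-16 than with miR-CTR, whereas 48.1% of all genes were. The median logFC was -0.285, which is 17.9% lower, and it ran from -0.69 for GAREM to -0.02 for C14orf182. The median of all genes was 0.00. For 62 of the 102 genes the logFC was under -0.25, against 10.8% of all genes, and for 82 it was below 0 by more than 2 counting standard errors, against 16.7%. The 538 kept genes had a median of -0.03 and 58.2% of them were below 0, and the 194 partly kept genes had a median of -0.115 with 79.9% below 0. The 3 classes were thus ordered at 12 h as they were at 24 and 48 h.

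At 6 h the separation was smaller. The logFC was below 0 for 76 of the 102 genes and above 0 for 24, against 47.7% and 49.8% of all genes. The median was -0.09, a difference of 6.0%. For 1 gene the counting standard error had a median of 0.073. In all, 36 genes were below 0 by more than 2 counting standard errors, against 13.6% of all genes, and 1 was above by as much, against 15.9%. Those same 76 genes were below 0 at both 6 and 12 h, where 26.6% of all genes were. For 87 genes the logFC was lower at 12 h than at 6 h, against 50.0% of all genes. The mean of the 6 and 12 h differences passed -0.5 for 1 gene, SESN3, against 1.45% of all genes, so the early differences were widespread and small.

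**Figure D2:**
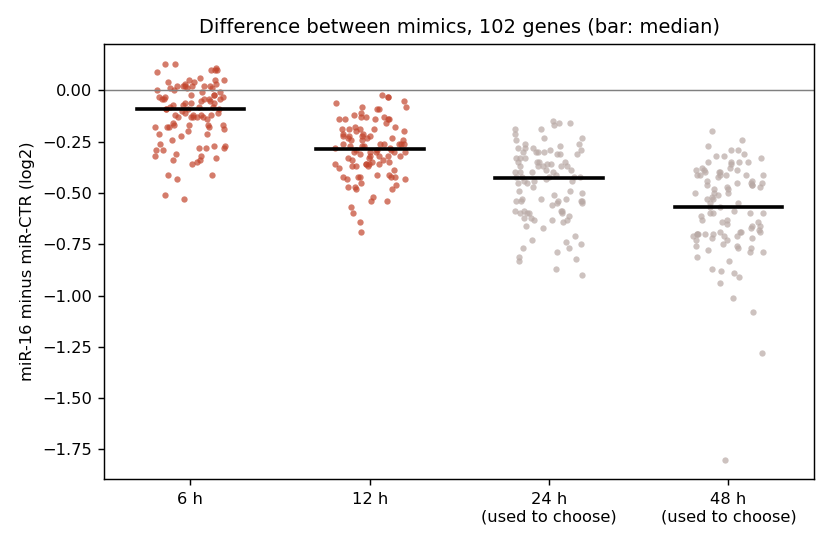
The miR-16 minus miR-CTR difference (log2, vertical axis) at each time, 1 point per gene for the 102 genes, with a bar at the median. At 6 h the points straddle 0, and at 12 h all lie below it, around a median of -0.285. The grey points at 24 and 48 h come from libraries that chose the genes.

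Differences at 6 h also followed base composition over the whole table. The median logFC of all coding genes at 6 h was -0.06 in the lowest of 4 equal bins by the GC content of the transcript and 0.04 in the third bin. The 25 blocked genes in that lowest bin had a median of -0.18 and the 22 in the highest had -0.025. At 12 h the bins of all genes lay between -0.02 and 0.03 while those of the blocked genes lay between -0.315 and -0.24. Transcript length moved with the 12 h value as well, from 0.03 in the bin of shortest transcripts to -0.03 in the longest over all genes and from -0.215 to -0.32 over the blocked genes. The part of GC content and length in the early differences was not tested.

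The genes fell into courses that differed in their first 6 h. The classes are a description by a rise of 0.25 over the 0 h library, which the choice of genes also used. Since the classes were set by the 6 h libraries and the choice held the late levels, the steps from 6 to 12 h within a class were in part fixed beforehand and nothing is read from their direction. In 18 genes both mimics were at least 0.25 above 0 h at 6 h, in 16 only miR-CTR was, in 3 only miR-16 was, and in 65 neither was. Of all genes, 8.40% were above with both mimics. The 18 genes had a median logFC of -0.035 at 6 h and -0.31 at 12 h. Their step from 6 to 12 h had a median of -0.23 with miR-16 and -0.02 with miR-CTR. For the 65 genes in which neither mimic was that far above 0 h, the steps had medians of 0.01 with miR-16 and 0.20 with miR-CTR. These 65 include genes that stood well below 0 h at 6 h with miR-16, such as CCND1 (-0.61) and SESN3 (-0.57). With miR-CTR these 2 genes changed by -0.20 and -0.04.

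FASN, the fatty acid synthase, gave the plainest course of the first kind. Its miR-CTR levels were 13.25, 13.94, 13.61, 13.80 and 13.84 from 0 to 48 h. With miR-16 they were 13.90, 13.14, 13.21 and 13.27 from 6 to 48 h. Both mimics thus began with a similar early rise, and by 12 h the miR-16 library was just under the 0 h level, at a logFC of -0.47 ± 0.02 (counting SE) after -0.04 ± 0.02 at 6 h. FASN carried 3 matches to the miR-16 seed in an 810-base 3′UTR, with the site shown above among them.

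INCENP, a subunit of the chromosomal passenger complex of mitosis, followed the same course. It stood at 10.66 at 0 h, at 11.39, 11.24, 11.20 and 11.36 with miR-CTR, and at 11.38, 10.92, 10.80 and 10.60 with miR-16. The logFC moved from -0.01 at 6 h to -0.32 at 12 h. ETS1, a transcription factor downstream of ERK signalling, stood at 13.01 at 0 h, at 13.66, 13.59, 13.71 and 13.88 with miR-CTR, and at 13.53, 13.33, 13.29 and 13.18 with miR-16. Its logFC was -0.13 ± 0.02 at 6 h and -0.26 ± 0.02 at 12 h. Its miR-16 levels came down step by step and its 3′UTR held only a 6mer match. SEMA6A, a transmembrane semaphorin, differed by -0.03 at 6 h and by -0.33 at 12 h.

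CCND1 and SESN3 showed the opposite order, with a difference already present at 6 h. CCND1, cyclin D1 of the G1 phase and a known miR-16 target, stood at 13.53 at 0 h and at 13.33, 13.69, 13.87 and 14.31 with miR-CTR. With miR-16 it stood at 12.92, 13.26, 13.27 and 13.65. Every miR-16 level lay below the miR-CTR level of its hour, by -0.41 ± 0.02 at 6 h and -0.43 ± 0.02 at 12 h, and only the 48 h level passed the start. With either mimic CCND1 fell and then climbed, and the gap widened to -0.60 at 24 h and -0.66 at 48 h. Its change of -0.61 at 6 h with miR-16 was the lowest of the 102 genes.

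SESN3, a sestrin that restrains mTORC1, stood at 9.62 at 0 h, at 9.58, 10.13, 10.57 and 10.42 with miR-CTR, and at 9.05, 9.56, 9.67 and 9.82 with miR-16. Its logFC of -0.53 ± 0.08 at 6 h was the lowest of the 102 at that time and was followed by -0.57 ± 0.07. PGM2L1, which makes glucose-1,6-bisphosphate, stood at 7.74 at 0 h, at 7.90, 8.51, 8.91 and 8.78 with miR-CTR, and at 7.39, 8.03, 8.04 and 7.70 with miR-16. It differed by -0.51 ± 0.15 at 6 h and -0.48 ± 0.11 at 12 h. Both carried seed matches, an 8mer and a 7mer in PGM2L1 and a single 7mer in SESN3.

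The other genes with the lowest early differences were GAREM, GPR157, FBXO10, MICA and TRANK1. GAREM, an adaptor between growth factor receptors and ERK, stood at 7.81 at 0 h, at 8.14, 8.25, 8.42 and 8.65 with miR-CTR, and at 7.83, 7.56, 7.82 and 7.87 with miR-16. Its logFC was -0.31 ± 0.13 at 6 h and -0.69 ± 0.13 at 12 h, and it had 3 matches. GPR157, an orphan G protein-coupled receptor, differed by -0.43 and -0.52, and FBXO10, an F-box protein, by -0.41 and -0.54. MICA, a stress-induced ligand of the NKG2D receptor, differed by -0.19 at 6 h and -0.64 at 12 h. It had no match in its 333-base 3′UTR but had one in its coding sequence.

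At the other end, VAT1, LANCL1, PACSIN2, EFNA5 and C14orf182 had the highest mean of the 2 early differences. VAT1 had logFCs of 0.10 and -0.08, LANCL1 of 0.02 and -0.06, PACSIN2 of 0.02 and -0.09, EFNA5 of 0.02 and -0.03, and C14orf182 of -0.04 and -0.02. In these 5 the gap was wider in the late libraries. At 12 h VAT1 (-0.08 ± 0.02) and PACSIN2 (-0.09 ± 0.03) were already below 0 by more than 2 counting standard errors. LANCL1, EFNA5 and C14orf182 were not. Of the 102 genes, 43 met the rule by the 24 h values, 81 by the 48 h values and 33 by both. LANCL1 met it only as a mean of the 2 late hours. With miR-16 it changed from 0 h by -0.16 at 24 h and by 0.61 at 48 h, against 0.21 and 0.81 with miR-CTR. Its rise at 48 h was thus largely present with miR-16. GADD45B, a stress-induced gene that activates p38 and JNK signalling, was the extreme case of a late gap. It stood at 7.93 at 0 h, at 8.14, 8.25, 8.69 and 9.49 with miR-CTR, and at 8.11, 8.16, 8.16 and 7.69 with miR-16. The curves were within 0.09 of each other up to 12 h and 1.80 apart at 48 h, the widest gap of any of the 102 genes at any time.

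**Figure D3:**
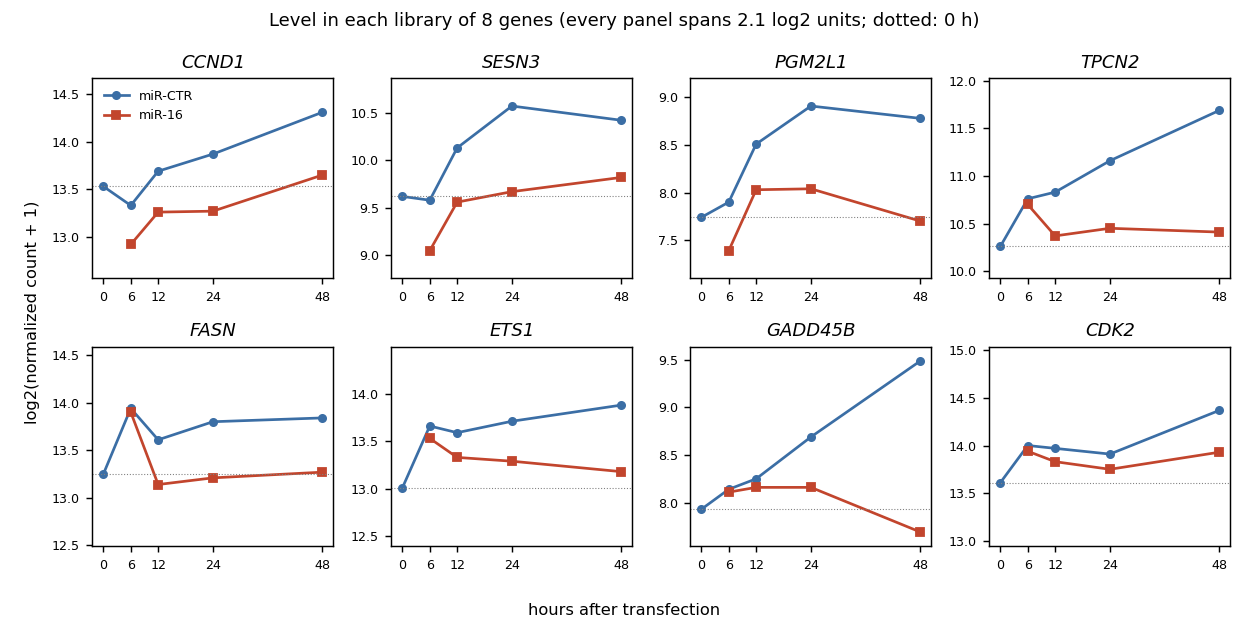
Level (log2 of normalized count + 1) against hours after transfection for 8 of the 102 genes, miR-CTR in blue circles and miR-16 in red squares, 1 library per point, with the 0 h level dotted. CCND1, SESN3 and PGM2L1 are well apart at 6 h. TPCN2 and FASN go from -0.06 and -0.04 at 6 h to -0.46 and -0.47 at 12 h, ETS1 goes from -0.13 to -0.26, and GADD45B is 1.80 apart only at 48 h.

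By known role, a group of 18 genes worked in lysosomes, endosomes and vesicle traffic. These groups were drawn up after the values were seen and carry no test. The 18 had a median logFC of -0.075 at 6 h and -0.32 at 12 h, from -0.47 to -0.09. TPCN2, a cation channel of lysosomes and melanosomes, had the largest late rise of all, 2.24-fold. It stood at 10.26 at 0 h, at 10.76, 10.83, 11.16 and 11.69 with miR-CTR, and at 10.70, 10.37, 10.45 and 10.41 with miR-16. After a shared first step only the miR-CTR libraries went on climbing, and the logFC was -0.06 ± 0.05 at 6 h and -0.46 ± 0.05 at 12 h.

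SLC17A5, the sialic acid exporter of lysosomes, stood at 8.48 at 0 h, at 8.34, 8.77, 9.36 and 9.39 with miR-CTR, and at 8.07, 8.34, 8.55 and 8.68 with miR-16. IGF2R, the mannose 6-phosphate receptor that delivers enzymes to lysosomes, stood at 12.22 at 0 h, at 12.59, 12.58, 12.82 and 12.93 with miR-CTR, and at 12.45, 12.11, 12.16 and 12.34 with miR-16. IGF2R was the most abundant gene of the group and its logFC of -0.47 ± 0.03 at 12 h was the lowest in it. CLCN5, an endosomal chloride-proton exchanger, and OSTM1, the partner subunit of the lysosomal exchanger CLCN7, differed by -0.42 and -0.36 at 12 h. ATP7A, the copper pump of the Golgi, differed by only -0.12 at both 6 and 12 h although it had 2 8mer matches. DEPDC5, a subunit of the GATOR1 complex that restrains mTORC1, differed by 0.03 and -0.39. The remaining genes here included the transporters SLC38A7 and LMBRD1, the melanosome transport factor MREG, the autophagosomal SNARE STX17, and the sorting proteins SNX16, ANKRD27, PACSIN2 and RAB11FIP5.

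From a list of 62 measured genes of the lysosome and the TFEB axis, TPCN2 was among the 102. With 0.687% of all genes blocked, that share of a list of this size is less than 1 gene, so nothing is read from a list that holds 1 blocked gene or none. Another 5 genes of that list were kept, 1 was partly kept and 1 was lowered. The list's medians were 0.26 late with miR-CTR, 0.12 late with miR-16 and -0.07 for the 12 h difference, against 0.00, -0.005 and 0.00 over all genes. GAA, the lysosomal acid glucosidase, rose by 1.16 with miR-CTR and 1.56 with miR-16, so lysosomal genes did not share 1 fate.

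Metabolic genes numbered 12, with a median logFC of -0.265 at 12 h and of -0.12 at 6 h. Beside FASN and PGM2L1 they included EPM2A, the glycogen phosphatase laforin, and SLC37A4, the glucose 6-phosphate transporter. Their 12 h logFCs were -0.21 and -0.26. MUT and MMAA, both of the methylmalonyl-CoA pathway that uses vitamin B12, differed by -0.37 and -0.27 at 12 h. CDS2, which makes CDP-diacylglycerol, had the lowest 12 h value of the group, -0.54 ± 0.03. A seed match was present in 4 of the 12, against 29.3% of all coding genes and 57.6% of the blocked coding genes. Of 40 measured genes of cholesterol and fatty acid synthesis, FASN was blocked, 3 were kept (INSIG1, SCD and SREBF1) and 5 were partly kept. SCD, the stearoyl-CoA desaturase, stood 0.90 above 0 h late with miR-CTR and 0.65 with miR-16, against 0.57 and -0.01 for FASN.

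Cell cycle genes numbered 7, with a median logFC of -0.14 at 12 h, from -0.43 to -0.05. CDK2, the kinase of the G1 to S transition, was the most abundant of the 102 genes. It stood at 13.61 at 0 h, at 14.00, 13.97, 13.91 and 14.37 with miR-CTR, and at 13.94, 13.83, 13.75 and 13.93 with miR-16. All miR-16 levels lay above 0 h and below the miR-CTR level of the same hour, with logFCs of -0.06 ± 0.02 and -0.14 ± 0.02, and no match lay in its 3′UTR or coding sequence. The whole CDK2 gene, chr12:55966769-55972784 on the plus strand, lies within the bounds of PMEL on the opposite strand. PMEL, a melanosome protein, stood at 16.62 at 0 h and late at 0.325 above it with miR-CTR and 0.515 with miR-16. Whether counting used the strand is not given in the sources used here, so reads of the 2 genes may not be told apart. The others were CDC14B, a phosphatase of mitotic exit, RTTN and TBC1D31 of the centrosome, and RMI2 of the BLM helicase complex.

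CCND1 and CDK2 were the blocked genes among 36 measured G1 cyclins, CDKs and inhibitors. That list had medians of -0.242 late with miR-CTR and -0.542 late with miR-16, so most of it did not rise in culture and could not be chosen. None of 51 DNA replication genes rose by 0.5 with miR-CTR, and of 58 mitotic genes INCENP alone did. Of 38 measured genes listed as miR-16 targets before, CCND1 was blocked and RECK was kept. The list of 34 melanocyte genes held CDK2 and TPCN2, with 10 kept and 2 partly kept. DCT, the dopachrome tautomerase, was one of the kept genes and rose from 12.29 to 14.38 with miR-CTR and 14.26 with miR-16 at 48 h.

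Transcription and chromatin genes numbered 12, and 11 of them were below 0 at 6 h, where 74.5% of the 102 and 47.7% of all genes were. Their median logFCs were -0.18 at 6 h and -0.295 at 12 h. JARID2, which recruits the Polycomb complex PRC2, stood at 10.69 at 0 h, at 10.84, 11.16, 11.37 and 11.29 with miR-CTR, and at 10.67, 10.68, 10.81 and 10.77 with miR-16. Its miR-16 levels stayed within a narrow range while miR-CTR climbed, and the 12 h logFC was -0.48 ± 0.05. SOX6, a SOX family transcription factor, differed by -0.28 and -0.41. ZMYM2 and ZBTB34, zinc finger proteins with 8mer matches, differed by -0.27 and -0.35 at 12 h. USF2, an E-box binding factor, had one of the smallest 12 h differences, -0.03. The word it binds, CACGTG, stood within the 300 bases around the RefSeq start of 9 of 81 blocked genes with a promoter in the table (11.1%), against 10.4% of 10396 promoters, on either strand.

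Signalling and stress genes numbered 11 and had a median logFC of -0.37 at 12 h, against -0.285 for the 102. A match was present in 9 of the 11 3′UTRs, against 57.6% of the blocked coding genes and 29.3% of all coding genes. It was present in 11 of 18 lysosome, 4 of 12 metabolic, 5 of 7 cell cycle and 7 of 12 transcription genes. Adhesion genes had it in 8 of 12, and genes in no role group in 13 of 27 with a 3′UTR. MAP3K3, a kinase upstream of ERK5, stood at 10.25 at 0 h, at 10.43, 10.76, 11.05 and 11.18 with miR-CTR, and at 10.47, 10.39, 10.42 and 10.30 with miR-16. The mimics were level at 6 h (0.04 ± 0.06) and apart at 12 h (-0.37 ± 0.05). MAP3K9, a mixed lineage kinase upstream of JNK, differed by 0.10 and -0.42, PELI2, an E3 ligase of Toll-like receptor signalling, by -0.34 and -0.45, and EGLN3, a prolyl hydroxylase of the hypoxia response, by -0.22 and -0.23. ORAI1, the pore of store-operated calcium entry, differed by 0.02 and -0.19.

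Adhesion, matrix, guidance and cytoskeleton genes numbered 12, with a median logFC of -0.295 at 12 h. VCL, the focal adhesion protein vinculin, stood at 11.10 at 0 h, at 11.34, 11.36, 11.63 and 11.64 with miR-CTR, and at 11.28, 11.04, 11.09 and 11.20 with miR-16. ITGA2, the collagen-binding integrin subunit, stood at 8.12 at 0 h, at 8.45, 8.66, 8.86 and 8.71 with miR-CTR, and at 8.28, 8.30, 8.39 and 8.30 with miR-16. In both the miR-16 levels were lower than miR-CTR at every hour. NAV1, a guidance protein that binds microtubules, had an 8mer and differed by 0.01 and -0.27. Of 48 measured matrix and integrin genes, ITGA2 was blocked and 7 were kept, among them FN1 and ITGB3.

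The 30 genes left had a median logFC of -0.285 at 12 h, the same as the median of the 102. They included TMCC2, which rose 1.95-fold with miR-CTR, and MDN1, an AAA protein of ribosome assembly, which rose 1.80-fold. TMCC2 differed by -0.17 and -0.42, and MDN1 by 0.00 and -0.38. LINC00511, a long non-coding RNA, stood at 8.70 at 0 h, at 9.40, 9.47, 9.62 and 9.64 with miR-CTR, and at 9.29, 9.14, 9 and 8.63 with miR-16, a return to the start. It was the blocked gene among 341 long non-coding RNAs by name, 118 of which had a 0 h level of at least 7. That list was drawn by symbol, and the blocked gene C14orf182, annotated as a long intergenic non-coding RNA, was outside it. Solute carriers gave 5 blocked genes of 219 measured (SLC17A5, SLC38A7, SLC37A4, SLC39A8 and SLC29A2), against 14 kept, while 102 of all 14839 genes were blocked and 538 kept. No gene of the lists for the unfolded protein response, p53, TGF-beta, interferon, WNT, BCL2, miRNA silencing, growth factor receptors, small GTPases, kinesins, ZNF proteins, ribosomal proteins, histones, mitochondrial RNAs, chaperones or palmitoyltransferases was blocked. The lists ran from 16 measured genes (BCL2) to 408 (ZNF proteins). Genes with a 0 h level of at least 7 ran from 6 (histones) to 276 (ZNF proteins). With 0.687% of all genes blocked, nothing is read from these absences.

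**Figure D4:**
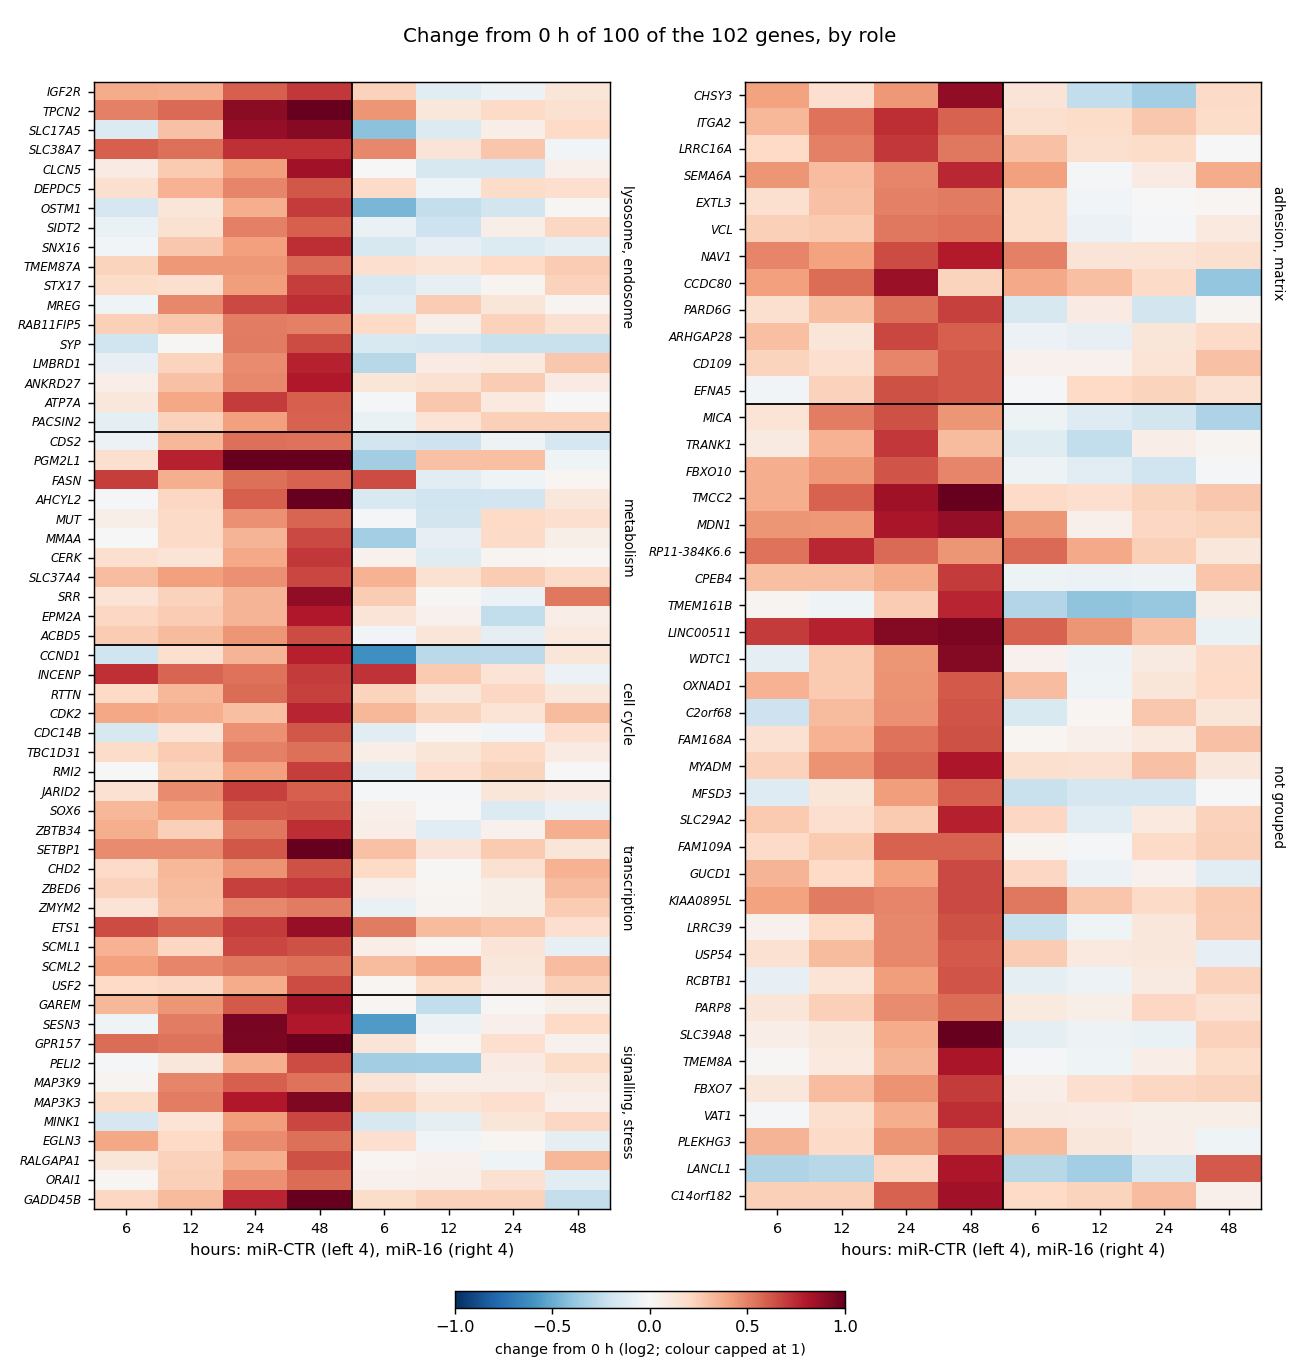
Change from 0 h (log2, colour, capped at 1) of 100 of the 102 genes in the 4 later miR-CTR libraries and the 4 miR-16 libraries, grouped by role and ordered within a group by the 12 h difference. Red spreads through the miR-CTR columns from 6 to 48 h, while most miR-16 columns are pale from 12 h on, with red at 6 h for FASN, INCENP, ETS1 and LINC00511.

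Seed matches were counted in the longest annotated 3′UTR of 99 of the 102 genes, all protein-coding. The full word is TGCTGCTA and is called an 8mer. Without its last letter it is a 7mer-m8, without its first letter a 7mer-A1, and any of the 3 on the transcript strand counted as a match, overlapping words each on their own. At least 1 match was present in 57 of 99 genes, 57.6% (95% Wilson interval 47.7 to 66.8, for the size of the list only). The share was 29.3% of 12037 coding genes and 30.2% of those with a 0 h level of at least 7. It was 25.6% of the kept genes (22.0 to 29.6) and 40.6% of the partly kept genes (33.9 to 47.8), and 6 of the 9 lowered coding genes had one. The share thus increased from the kept to the partly kept to the blocked genes, and of these 3 only the intervals of the partly kept and the blocked genes overlapped.

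**Figure D5:**
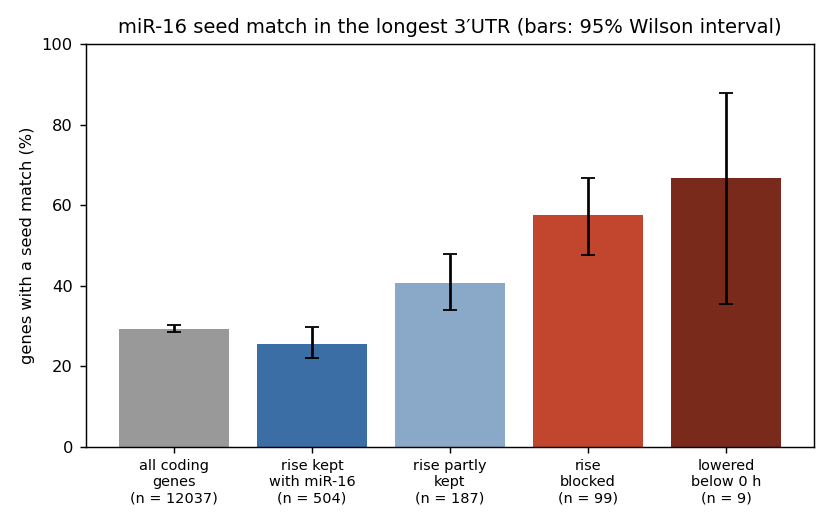
Share of coding genes with a miR-16 seed match in the longest 3′UTR (%, vertical axis) for all coding genes and for 4 classes of genes that rose with miR-CTR, with 95% Wilson intervals. The blocked genes stand at 57.6% and the kept genes at 25.6%.

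An 8mer was found in 11 of the 99 genes (11.1%), against 5.0% of all coding genes and 2.2% of the kept genes. The 11 were CCND1, PGM2L1, GAREM, VCL, CLCN5, ATP7A, NAV1, CDC14B, ZBTB34, ZMYM2 and DEPDC5. A 7mer-m8 was the best match in 40 and a 7mer-A1 in 6, a 6mer in 14, and no word in 28. Matches were single in 26 genes, double in 15 and triple in 12, and 4 genes had more (WDTC1, TRANK1, CCDC80 and MAP3K9). By best match, the median 12 h logFC was -0.35 with an 8mer, -0.32 with a 7mer-m8, -0.23 with a 7mer-A1, -0.265 with a 6mer and -0.20 without a word. The 8mer and 7mer-m8 classes were thus lowest, while the 7mer-A1 class, with 6 genes, lay above the 6mer class. The same classes over all coding genes were at -0.09, -0.05, -0.03, -0.01 and 0.02.

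Blocked genes without a match in the 3′UTR were lower at 12 h too. Their median was -0.225 against -0.32 with a match, and -0.03 and -0.05 for the kept genes. At 6 h the medians with and without a match were -0.10 and -0.09. Of the 42 genes without a 3′UTR match, 26 had one in the coding sequence (61.9%), against 35.8% over all genes and 39.2% over the kept genes without a 3′UTR match. The median coding length of these 42 genes was 1248 bases and that of the 8509 genes of the whole table without a 3′UTR match 1245. The 16 genes with neither included CDK2, GADD45B, SETBP1, EPM2A, USF2 and PACSIN2, and had a median of -0.165 at 12 h, against 0.03 for the 5466 genes of the table with neither.

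3′UTR length was larger in the blocked genes, and longer 3′UTRs hold more words. The median length was 2112 bases, against 1411 over all coding genes and 1482 over the kept genes. When the genes were split into 3 equal parts by length, 34 of 46 blocked genes with the longest 3′UTRs had a match (73.9%), against 51.4% of all genes and 42.7% of the kept genes in that part. In the middle part the shares were 50.0%, 26.7% and 24.3%. In the shortest part 2 of 11 blocked genes had one, against 9.9% of all genes. Per kilobase the blocked genes held 0.407 matches, all coding genes 0.215 and the kept genes 0.161. The study's probe list gives the miR-16 sequence under the name of its control pull-down probe. The sequence of the other probe was therefore taken as the control, and it may not be the control mimic of these libraries. Words for that sequence were found in 9.1% of the blocked genes, 14.6% of all and 10.1% of the kept.

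The 2 late hours describe how far the genes came apart. The median logFC was -0.425 at 24 h and -0.57 at 48 h, or 25.5% and 32.6% lower. For 35 of the 102 genes the logFC was under -0.5 at both hours, against 2.78% of all genes, a share from which nothing is read since these libraries chose the genes. Just inside the threshold of the rise were MMAA, ZMYM2 and RALGAPA1, each at 0.5, and just outside were OSBPL9, PEX19 and ACVR2B, each at 0.495. SETBP1 (7), SRR (7.04) and CCDC80 (7.11) were just inside the minimum 0 h level, and ZNF438 (6.99), POU6F1 (6.97) and NR5A2 (6.91) just outside. CHD2 (0.25), TMCC2 (0.245) and PACSIN2 (0.24) were just inside the upper edge of the band, and EPS15, CTH and ZSWIM6, each at 0.255, just outside. MICA (-0.245), SYP (-0.22) and TMEM161B (-0.16) were just inside the lower edge, and ZNF503 (-0.285), SLC2A3 (-0.295) and PIGB (-0.32) just outside.

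Of the 102 genes, 29 overlapped another gene of the table in position, 22 of them a gene on the opposite strand and 10 a gene on the same strand. Beside CDK2, the clearest case was ZBED6, which lies wholly within ZC3H11A on the same strand of chromosome 1. ZC3H11A stood at 12.10 at 0 h and differed by -0.17 at 12 h, against 8.33 and -0.30 for ZBED6. The last 1399 bases of CCND1 overlap the end of ORAOV1 on the opposite strand, which stood at 8.26 at 0 h, far under CCND1, and differed by 0.35 at 12 h. The part of shared reads in these values was not tested.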

How the data were processed

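MP41 cells gave 9 polyA RNA libraries, 1 per condition. The authors deposited normalized log2 values with 2 decimals and decimal commas for 14839 genes. The submitters' processing notes name FastQC, STAR 2.4.0a, featureCounts, Subread 1.5.0-p3 and the build hg38 (GRCh38). On the linear scale with 1 subtracted, 100% of values up to 5 in each library were whole multiples of a library step (0.8531 to 1.1494), so the deposited log2 unit is log2(reads / size factor + 1), and reads were recovered from it. No further normalization was applied. Columns T0, T1, T2, T4 and T5 were taken as 0, 6, 12, 24 and 48 h, in ascending order of the sample titles.

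The 102 genes, the gene lists and the role groups were chosen with earlier results of these data known. A first set of genes was named by fixed rules. These took the 10 largest late rises, the 10 highest 0 h levels, and the 8 lowest and 5 highest early differences. They also took 8mer matches, list members, genes beside a threshold, and abundant genes with 1 sign at all 4 times. Other blocked genes, such as OSTM1, EPM2A, MUT, MAP3K9, PELI2, ORAI1 and WDTC1, were named outside these rules to fill in role groups and match counts. Symbols were joined to GENCODE version 29 on GRCh38 by name or RefSeq synonym (91.3% of all, 101 of 102 of the blocked genes). The 3′UTR was the longest annotated one. Scripts (Python 3.11.15, pandas 2.3.3, numpy 2.4.6) were tested on simulated data. Alternatives covered scaling, pseudocount, thresholds, baseline and site definition. Promoter and miRNA sequences were from RefSeq GRCh38.p14. Single values of 2 of the 102 genes are not reported here.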

Additional observations from a re-analysis of the deposited data

How the results depend on the processing

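No paired analysis was possible because the values at each hour come from 1 library of each mimic and from no test, and for the same reason no library could be left out of a group. A fit of the mimic with the hour as a block was not run, since it would take hours as replicates and 2 of the 4 hours chose the genes. The number of genes followed the thresholds. It was 179 with no minimum at 0 h, 45 with a rise of at least 1.5-fold, 236 with a rise of at least 0.4, 56 and 172 with bands of 0.15 and 0.35, 167 by 48 h alone and 33 when both late hours had to meet the rule. Of 81 genes chosen with miR-CTR 6 h as the baseline, 30 were among the 102, so the single 0 h library decides many of the names. By construction fewer or more genes pass stricter or looser thresholds, and the cause of other moves was not tested.

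The number of genes past -0.5 in the mean of the 6 and 12 h differences, 1 as reported, was 4 after quantile normalization, 16 with no minimum at 0 h and 0 at 1.5-fold. The share of genes with a seed match was 67.3% with the band of 0.15, 69.7% when both late hours had to meet the rule and 67.5% with miR-CTR 6 h as the baseline, and it was 49.0% with no minimum at 0 h, 49.3% with a rise of 0.4, 51.0% by 48 h alone and 52.4% with the band of 0.35. It was 11.1% for 8mers alone, 71.7% with 6mers and 25.3% in the shortest annotated 3′UTR, where all coding genes had 5.0%, 46.8% and 12.2%. Under centring, quantile normalization, other minimums and a pseudocount of 10, the median logFC at 6 h ran from -0.114 with quantile normalization to -0.07 with centring, and that at 12 h from -0.29 to -0.26, the latter with no minimum at 0 h. For the genes named by the fixed rules, 358 of 360 values moved by less than 2 counting standard errors of the gene. These values were taken under centring, quantile normalization or that pseudocount. The exceptions were ETS1 (-0.188) and VAT1 (0.036) at 6 h with quantile normalization.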

Other observations

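The 10 genes that rose with miR-CTR and fell below 0 h with miR-16 were RASA2, RRAGD, DYNC1I1, CHIC1, TMEM55A, ZNF503, SLC2A3, PIGB, RPS18P12 and CARD10. All 10 were lower with miR-16 at both 6 and 12 h, with medians of -0.50 and -0.70. RRAGD, a Rag GTPase of mTORC1 signalling, stood at 10.57 at 0 h, at 10.48, 10.68, 10.97 and 11.44 with miR-CTR, and at 9.97, 9.96, 9.74 and 9.93 with miR-16. SLC2A3, the glucose transporter GLUT3, stood at 7.68 at 0 h, at 8.34, 8.83, 8.79 and 8.21 with miR-CTR, and at 7.71, 7.79, 7.43 and 7.34 with miR-16. RPS18P12 is a pseudogene whose reads may be shared with its parent gene.

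By position, chromosomes 6 and 11 each held 11 of the 101 blocked genes with a position (10.9%), against 5.12% and 5.3% of all genes with one, a description without a test. TPCN2 and CCND1 are in the same region of chromosome 11, TPCN2 at chr11:69048897-69162440 and CCND1 at chr11:69641087-69654474. From 6 to 48 h the logFCs were -0.06, -0.46, -0.71 and -1.28 for TPCN2 and -0.41, -0.43, -0.60 and -0.66 for CCND1. A shared cause was not tested.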
